A study of Saccharomyces cerevisiae with 13 samples.

Results

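The 8 protein genes of the yeast mitochondrial genome, COX1, COX2, COX3, COB, ATP6, ATP8, OLI1 and VAR1, were followed on 13 one-colour Affymetrix arrays of total RNA from Saccharomyces cerevisiae. Their probe sets were found by annotation, as every probe set whose annotated gene, or one of whose annotated genes, is one of the 8. This gave 20 of the 9275 probe sets left after removal of the array's control probe sets, for 8 of the 5923 genes named. There were 5 control arrays, 5 arrays of cells given spermidine and 3 arrays of cells given spermine. The spermidine and spermine samples carry deletions of SPE3 and FMS1 (genotype delta-spe3 delta-fms1), whereas the control labels name no genotype, so a genotype shared by all groups is not stated in the sources used here. The series title speaks of a polyamine-deficient mutant and asks which genes respond to spermidine or spermine, polyamines that differ by 1 added aminopropyl group in spermine. The labels give no dose, treatment time, growth phase or carbon source, so spermidine and spermine were compared as given, without a known match of dose or time.

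The mitochondrial genome encodes the catalytic core of the respiratory chain and part of the machine that makes ATP. COX1, COX2 and COX3 are core subunits of cytochrome c oxidase (complex IV), COB is cytochrome b of the bc1 complex (complex III), and ATP6, ATP8 and OLI1 are membrane subunits of ATP synthase, with OLI1 also called subunit 9. VAR1 is a protein of the small mitochondrial ribosomal subunit. All these genes are read by a dedicated RNA polymerase, Rpo41, with its specificity factor Mtf1. COX1, ATP8 and ATP6 lie in that order and share a primary transcript, and OLI1 and VAR1 share another. COX1 and COB are split by introns, several of which hold reading frames of their own (named AI in COX1 and BI in COB) for maturases and endonucleases. Each mRNA then needs nuclear-encoded proteins for its processing, stability and translation.

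Signals are linear intensities in the units of the deposited files, and SPE3 and FMS1 were examined first, since they check the labels. SPE3 lay between 0.570 and 13.8 and FMS1 between 1.10 and 8.10 on all 13 arrays, below the level of non-yeast control probe sets (16.04 in controls, 17.7 with spermidine and 19.4 with spermine, called background here), controls included. Median signals ranged from 125 to 162 between arrays, and log2 signals of replicate arrays correlated between 0.945 and 0.970, across probe sets, which are not independent replicates. Since no label says whether replicates were separate cultures, every p-value here rests on array-to-array spread that could be technical, and precision is limited by the number of arrays. Over 50 nuclear small RNA genes, whose products carry no long poly(A) tail, the mean log2 deviation from the overall mean was 0.04 to 0.98 on control arrays, 0.08 to 0.77 on spermine arrays and -1.07 to -0.57 on spermidine arrays. Over 16 stress genes, controls 2 and 3 and spermine 1 stood highest at 2.04, 1.97 and 1.44, against -1.30 to 0.35 on the other arrays. By group, this mean ran from -0.16 to 2.04 in controls, -0.46 to 1.44 with spermine and -1.30 to -0.66 with spermidine. All spermidine arrays thus lay below all other arrays. Yeast mitochondrial mRNAs also lack long poly(A) tails, and the labels do not say how cDNA was primed.

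Of the 20 probe sets, 14 name 1 gene and 6 are shared with intron reading frames, 3 of them of COX1 and 3 of COB. The labels and annotation do not say where in a gene a probe set lies, so exon and intron sequence, and precursor and mature mRNA, cannot be told apart by position. In RNA from whole cultures, fewer cells that hold a mitochondrial genome and less mitochondrial RNA per cell also cannot be told apart. A filter removed the dimmest 25% of all probe sets (mean signal under 37.8). It left 14 member probe sets of 5 genes, 6 of COX1, 5 of COB and 1 each of ATP6, COX3 and OLI1. COX2, ATP8 and VAR1 had no probe set above the filter and are described by their values at the end. A probe set's difference between groups is given on the log2 scale with its standard error after ±, from a limma fit over all 13 arrays, and it counts as called at an adjusted p under 0.05 over all 6956 probe sets tested.

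**Figure D1:**
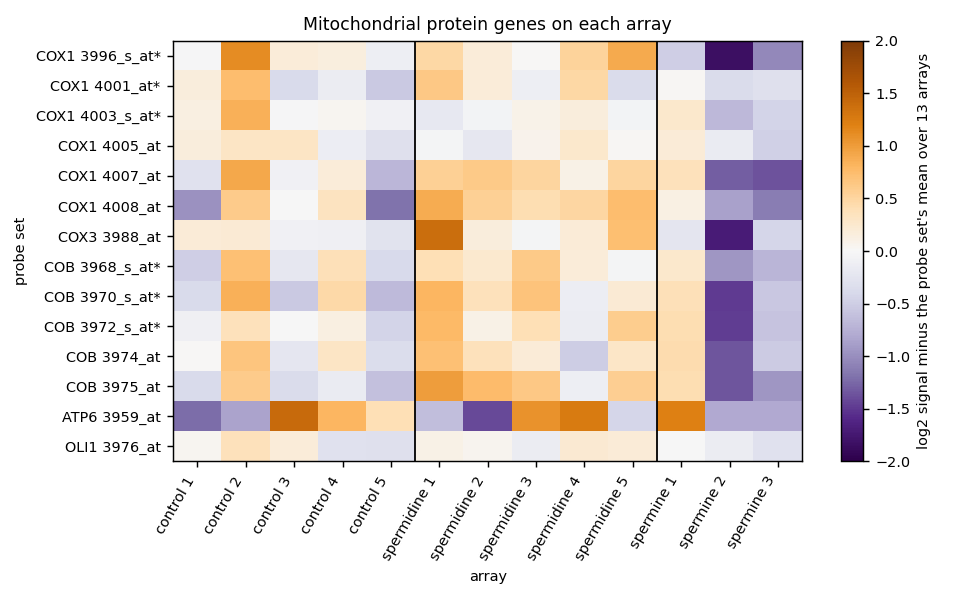
Each row is a member probe set that passed the filter (an asterisk marks those shared with intron reading frames), each column an array, and the colour is the log2 signal minus that probe set's mean over the 13 arrays. Spermine arrays 2 and 3 were low over nearly all rows (mean deviations of -1.04 and -0.68 over the 14 member probe sets), whereas spermine 1 lay at 0.24, control arrays between -0.40 and 0.53, and spermidine arrays between 0.14 and 0.49.

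The clearest difference was between the polyamines, with 3 of 6 COX1 probe sets and the single COX3 probe set called lower with spermine than with spermidine. In this contrast 5 of 14 member probe sets were called, all lower with spermine, where 20.2% of all probe sets tested were called, 11.1% lower and 9.19% higher. All 14 member differences lay below 0, against 49.0% of all probe sets, and their median was -0.82, against 0.01. Here and in the contrasts below, the 14 were not independent, since 6 are of COX1 and 5 of COB, and probe sets of 1 gene share a transcript. The called probe sets were 3 of COX1, 1 of COX3 and 1 of COB. Their mean signals over all arrays lay between 57.4 and 172. The brightest member probe sets, OLI1 3976_at (7531) and COX1 4005_at (4299) and 4001_at (2179), were not called. Of the 14 tested, 3 were lower with spermine without overlap between the arrays, where 13.8% of all probe sets were lower without overlap. The arrays did not carry the contrast equally: leaving out spermine 1 raised the count to 9 (median -1.26), leaving out spermine 2 lowered it to 1 (median -0.45) and leaving out spermine 3 to 2. The share of all probe sets called fell as well, to 18.3%, 13.4% and 13.9% in that order. The count was 2 without spermidine 1 or spermidine 5 and 3 without spermidine 2 or spermidine 3, where 17.5% to 19.0% of all were called. Without controls 2 and 3 and spermine 1, the arrays high in stress genes, it was 10.

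COX1, the catalytic subunit that holds the haem and copper centre of complex IV, had 6 tested probe sets. The probe set shared with the reading frames AI1 to AI5_ALPHA (3996_s_at) had signals of 144, 325, 177, 167 and 136 on control arrays 1 to 5, 222, 156, 148, 247 and 279 on spermidine arrays 1 to 5, and 113, 44.7 and 74.2 on spermine arrays 1 to 3. All 3 spermine arrays lay below all 10 others. The spermidine mean was 210.4 ± 57.0 (SD, n = 5), and the spermine mean was 77.2 ± 34.1 (SD, n = 3). The log2 difference was -1.54 ± 0.32 (95% interval -2.21 to -0.86, adjusted p = 0.00320 by limma), a 2.90-fold lower level. This was the single member probe set called in all 26 settings run, with values between -1.85 and -1.19 when each array was left out in turn.

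Of the COX1 probe sets that name COX1 alone, 4008_at read 54.6, 172, 117, 139 and 45.7 in controls, 216, 148, 144, 181 and 184 with spermidine, and 127, 61.9 and 51.9 with spermine. Every spermine array lay below every spermidine array, while the controls spanned nearly the range of both. The difference was -1.24 ± 0.38 (adjusted p = 0.0323 by limma). Probe set 4007_at read 53.1, 128, 68.4, 73.4 and 38.7 in controls, 101, 91.4, 91.4, 79.3 and 95.5 with spermidine, and 89.6, 29.1 and 26.3 with spermine. Spermine 1 lay inside the spermidine range and the other spermine arrays lay below all controls, and the difference was -1.22 ± 0.39 (adjusted p = 0.0363 by limma). Neither kept its call without spermine 2, spermine 3, spermidine 1 or spermidine 5, nor 4007_at without spermidine 2 or spermidine 3, with adjusted p up to 0.147 for 4008_at and 0.171 for 4007_at.

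The other COX1 probe sets were not called. Probe set 4005_at, which names COX1 alone, read 4892, 5403, 5276, 4025 and 3517 in controls, 4018, 3817, 4456, 4536 and 4287 with spermidine, and 4697, 3866 and 3096 with spermine. The groups overlapped, and the spermine minus spermidine difference was -0.17 ± 0.17 (95% interval -0.54 to 0.20, adjusted p = 0.524 by limma). That interval does not reach the -1.54 of 3996_s_at. The probe set shared with AI5_ALPHA and AI4 (4001_at) ranged from 1459 to 3617 over all arrays, with a difference of -0.38, and the one shared with AI5_ALPHA (4003_s_at) from 193 to 550.1, with -0.28. So the 6 probe sets annotated to 1 gene gave differences from -1.54 to -0.17. Averaged over its 6 probe sets, an alternative chosen after the data were seen, COX1 was called at -0.80 ± 0.26 (adjusted p = 0.0375 by limma).

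COX3, which with COX1 and COX2 forms the core of complex IV, had 1 probe set (3988_at). It read 56.1, 64.5, 51.9, 46.1 and 39.9 in controls, 142, 50.7, 45.7, 63.5 and 86.7 with spermidine, and 43.6, 18.02 and 38.5 with spermine. All spermine arrays lay below all spermidine arrays, by a narrow margin between spermine 1 and spermidine 3, and spermine 2 stood lowest of all. The difference was -1.28 ± 0.35 (95% interval -2.03 to -0.53, adjusted p = 0.0180 by limma), a 2.44-fold lower level. Without spermine 2 it was -0.83 (adjusted p = 0.119 by limma) and no longer called, and it was called in the other 24 of 25 settings that gave a value.

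**Figure D2:**
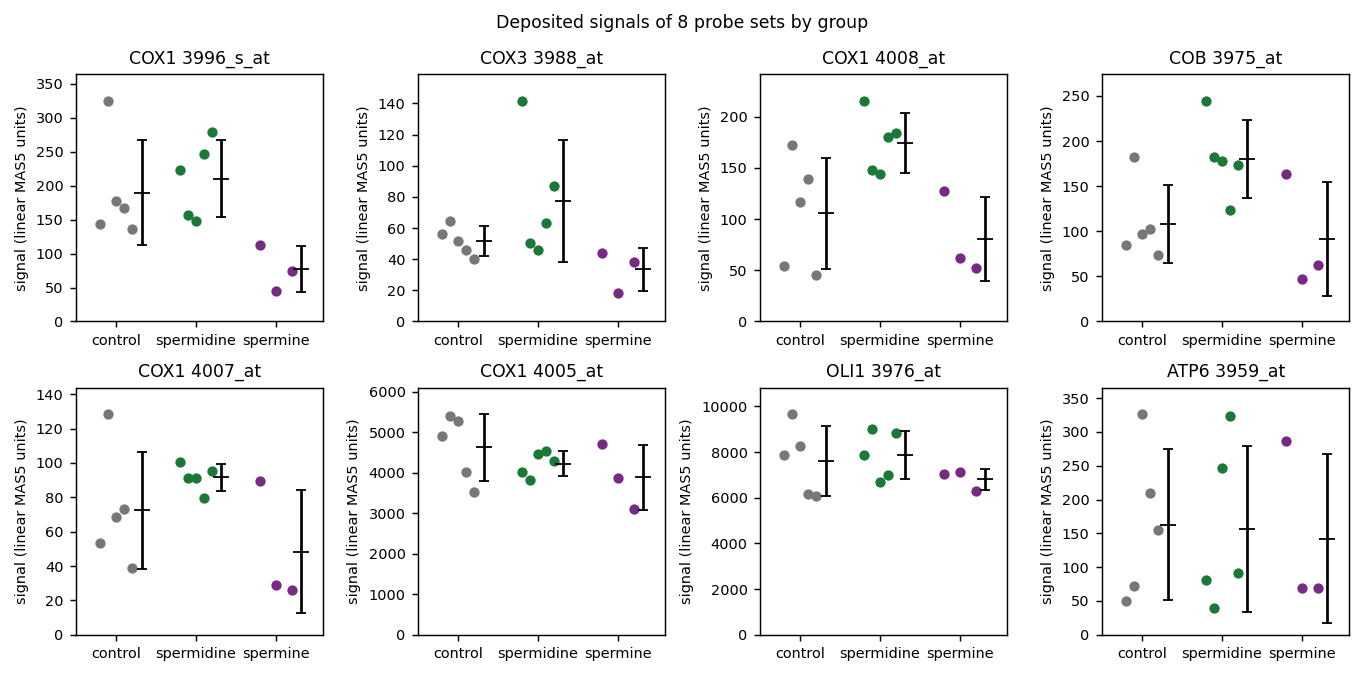
Points are the deposited signals of single arrays for 8 member probe sets by group (the 5 called between spermine and spermidine, and the brightest of COX1, OLI1 and ATP6), in linear units from 0, with the group mean and SD beside them (n = 5, 5 and 3). For COX1 3996_s_at and COX3 3988_at the spermine points lie below all spermidine points, whereas for ATP6, OLI1 and COX1 4005_at the groups overlap.

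COB encodes cytochrome b, the subunit of complex III at which quinones are oxidised and reduced. Its 5 probe sets gave differences from -1.20 to -0.70 between spermine and spermidine, and 1 was called. That probe set (3975_at), which names COB alone, read 85.0, 182, 97.1, 102 and 73.1 in controls, 245, 183, 178, 123 and 173 with spermidine, and 164, 47.3 and 62.6 with spermine. Spermine 2 and 3 lay below all other arrays and spermine 1 among the spermidine arrays, with a difference of -1.20 ± 0.37 (adjusted p = 0.0327 by limma). The call was lost without spermine 2 or 3, or without spermidine 1, 2, 3 or 5, with adjusted p up to 0.182. The other 4 COB probe sets had adjusted p-values of 0.0744 to 0.175, and all 4 were called when spermine 1 was left out. The mean of the 5 COB probe sets, the alternative chosen after the data were seen, was -0.89 ± 0.34 (adjusted p = 0.0746 by limma).

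The ATP synthase genes gave no call in this contrast. OLI1 (3976_at) read 7881, 9662, 8264, 6174 and 6066 in controls, 7890.2, 8998, 6699, 6997 and 8841 with spermidine, and 7023, 7131 and 6277 with spermine. All 3 spermine signals lay inside the range set by the remaining arrays, and the difference was -0.23 ± 0.15 (95% interval -0.55 to 0.08, adjusted p = 0.289 by limma). ATP6 (3959_at) read 50.5, 72.6, 326, 209 and 156 in controls, 80.7, 39.2, 247, 324 and 91.5 with spermidine, and 286, 69.5 and 69.9 with spermine. It varied 8.34-fold over the 13 arrays, with high and low arrays in every group, and its difference of -0.10 ± 0.70 had an interval from -1.60 to 1.40.

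Spermine samples were also compared with the control samples. The control labels name no genotype, so in both contrasts against control a genotype difference and the polyamine cannot be told apart. No member was called, with 2 of 14 at an unadjusted p under 0.05 in limma, and 0.0288% of all probe sets were called. All 14 differences lay below 0, against 48.7% of all probe sets, with a median of -0.47. COX1 3996_s_at was furthest from 0, at -1.38 ± 0.32 (95% interval -2.06 to -0.71, adjusted p = 0.158 by limma), and was the 1 member whose groups did not overlap, where 2.56% of all probe sets were lower without overlap. COX3 followed at -0.78 ± 0.35 (95% interval -1.53 to -0.03, adjusted p = 0.586). The COB probe sets lay between -0.57 and -0.44, OLI1 at -0.15 ± 0.15 and COX1 4005_at at -0.22 ± 0.17. The size rested on single arrays, with a median of -0.94 without spermine 1, -0.18 without spermine 2 and -0.30 without control 2. No member was called in any fit that left out a single array.

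Spermidine, the product of the deleted synthase Spe3, was set against control with the same limit on genotype. Although 30.1% of all probe sets were called, 0 of 14 members were, with 2 at an unadjusted p under 0.05 in limma. Of the 14 differences, 11 lay above 0 and 3 below, where 49.2% of all probe sets lay below 0, and the median was 0.24 against 0.01. No member's groups were free of overlap, where 12.5% of all probe sets were higher and 9.43% lower without overlap. COX1 4008_at came nearest to a call, at 0.87 ± 0.33 (95% interval 0.16 to 1.57, adjusted p = 0.0603 by limma), followed by COB 3975_at at 0.75 ± 0.32 (95% interval 0.07 to 1.43, adjusted p = 0.0886). The bright probe sets were measured more closely, with OLI1 at 0.09 ± 0.13 (95% interval -0.19 to 0.37) and COX1 4005_at at -0.05 ± 0.15 (95% interval -0.37 to 0.28). COX3 was at 0.50 ± 0.30 and ATP6 at -0.14 ± 0.61. COX1 4008_at and COB 3975_at were both called without control 2 and without spermine 1, COX1 4008_at also without control 4, and COB 3975_at also without spermidine 4. Without controls 2 and 3 there was 1 call, and 3 when spermine 1 was left out as well.

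**Figure D3:**
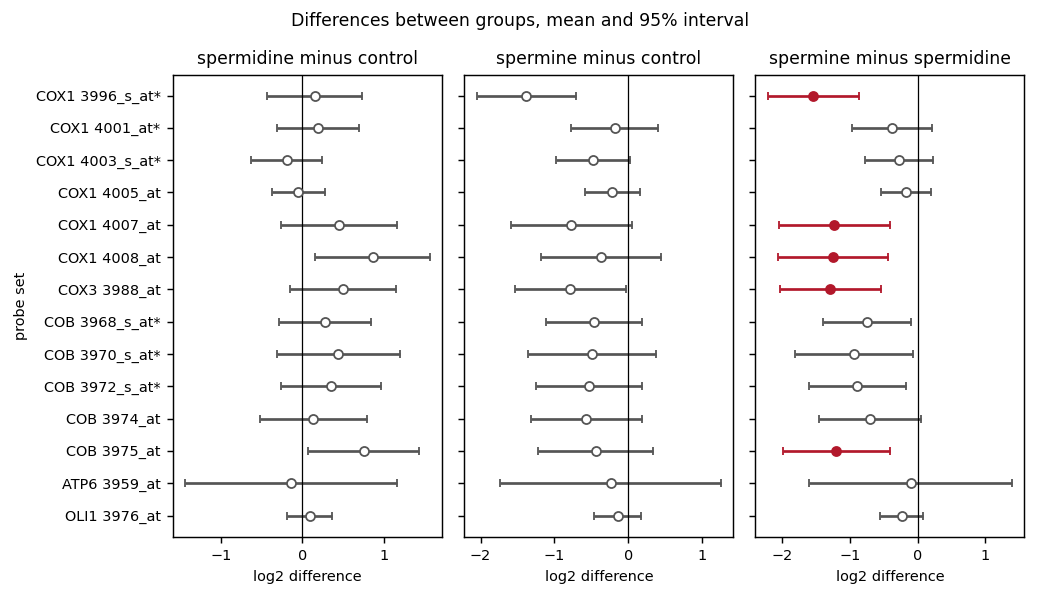
Each point is the log2 difference of a tested member probe set (asterisk, shared with intron reading frames) with its 95% interval, in 3 panels for the 3 contrasts, and filled points are called. In the spermine minus spermidine panel all members lie below 0 and 5 are called, whereas in the panels against control none is.

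The members moved together across arrays to a different degree by gene. Over 13 arrays, the 10 pairs of COB probe sets correlated between r = 0.82 and 0.94 (rho 0.77 to 0.96), and between 0.73 and 0.96 after each group's mean was removed. The 15 COX1 pairs correlated between 0.45 and 0.89, the 30 pairs of COB with COX1 between 0.32 and 0.94, and COX3 with COB between 0.60 and 0.87. OLI1 correlated with COX1 probe sets between 0.58 and 0.78 and with COB between 0.36 and 0.52. These are descriptions, since all pairs share the same arrays, and probe sets of 1 gene share a transcript. Nuclear genes were also set beside the mean profile of the 16 member probe sets above background in every group. These were the tested member probe sets, ATP8 3957_r_at and VAR1 3979_i_at. Most like this profile were DPC29 (r = 0.87, rho = 0.65), TDH1 (0.86, 0.73), CLG1 (0.86, 0.78), SMC5 (0.84, 0.74) and SEC28 (0.83, 0.76). TDH1 is an isozyme of glyceraldehyde-3-phosphate dehydrogenase, SMC5 a subunit of a chromosome-structure complex and SEC28 a subunit of the vesicle coat COPI.

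ATP6 stood outside this pattern, with r between -0.23 and 0.39 against the other 13 member probe sets. Its signal was between 156 and 326 on 6 arrays (controls 3, 4 and 5, spermidine 3 and 4, and spermine 1) and between 39.2 and 91.5 on the other 7. AI1, the reading frame of the first COX1 intron, has a probe set of its own that read 15.9, 27.4, 128, 116 and 109 in controls, 20.9, 25.6, 207, 141 and 64.6 with spermidine, and 294, 62.0 and 37.8 with spermine. The same 6 arrays were the ones above a signal of 100, at 109 to 294 against 15.9 to 64.6. The value of 100 was chosen after the signals were seen. ATP6 and AI1 were thus high in 3 of 5 controls, 2 of 5 spermidine arrays and 1 of 3 spermine arrays.

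The mitochondrial genome's other 14 probe sets, those of intron and unnamed reading frames, were dim, and 2 passed the filter, AI1 and AI5_ALPHA. Neither was called in any contrast. SCEI, the homing endonuclease frame in the intron of the large ribosomal RNA gene, lay under the filter and was singled out after its values were seen. It read 12.5, 22.9, 22.4, 22.6 and 10.3 in controls, 43.3, 28.5, 45.3, 35.9 and 61.1 with spermidine, and 46.0, 16.7 and 14.7 with spermine. All spermidine arrays lay above all controls, as for 12.5% of the probe sets that passed the filter. In the fit without a filter SCEI was higher by 1.38 ± 0.34 (adjusted p = 0.00846 by limma), and by 1.23 to 1.52 when each array was left out. That fit called 23.5% of all probe sets, higher or lower, in this contrast. The controls' mean of 18.1 is close to their background of 16.04.

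Of the members under the filter, COX2, the copper-binding subunit of complex IV that takes electrons from cytochrome c, had 1 probe set, between 1.69 and 27.4 over all arrays and at background in every group. ATP8, a small membrane subunit of ATP synthase, had a pair of probe sets. The brighter one (3957_r_at) read 29.1, 47.4, 36.3, 17.4 and 31.1 in controls, 30.6, 32.2, 33.9, 29.0 and 11.5 with spermidine, and 37.4, 24.8 and 25.8 with spermine, with full overlap. The other was at background with spermidine and with spermine. VAR1 (3979_i_at) read 23.6, 52.6, 19.3, 32.9 and 30.8 in controls, 31.5, 37.8, 29.0, 26.3 and 55.2 with spermidine, and 34.3, 18.5 and 27.8 with spermine, again with overlap. Its other probe set (0.573 to 16.05) and the second of OLI1 (0.151 to 8.29) were at background in every group, which limits what they can show about COX2, VAR1 and OLI1.

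The nuclear-encoded subunits that assemble with these proteins differed between groups as well. They were lower with spermidine than in controls for 14 of 32 genes and higher for none, where 14.2% of all genes, each by its brightest probe set, were called lower and 17.3% higher. The median was -0.34, against 0.02 for all genes. By complex, the falls were 6 of 9 in complex III, 3 of 9 in complex IV and 5 of 14 in ATP synthase. CYT1, cytochrome c1, fell from 1352 ± 526 (SD, n = 5) to 545 ± 145 (SD, n = 5), by 1.24 ± 0.28 on the log2 scale (adjusted p = 0.00347 by limma). The small complex III subunits QCR10 (-1.05 ± 0.22), QCR9 (-0.84 ± 0.12) and QCR7 (-0.80 ± 0.16) and the Rieske iron-sulfur protein RIP1 (-0.82 ± 0.20) also fell, with adjusted p-values up to 0.00744, and kept the call when each array was left out. COX7, a complex IV subunit, fell by 0.66 ± 0.22 (adjusted p = 0.0325), but was not called without control 1, control 2, spermidine 2 or spermidine 3. COX4 of complex IV was at 0.00 ± 0.19 and ATP1, the alpha subunit of ATP synthase, at -0.28 ± 0.11 (adjusted p = 0.0588). The 14 falls became 9 without control 2 or control 5, and 8 without controls 2 and 3 together. In those fits 26.8% to 27.5% of all probe sets were called, higher or lower, against 30.1% over all arrays. Without spermidine 3 there were 8 falls and 1 partner called higher, and without spermidine 2 there were 11 falls and 1 partner called higher.

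In the direct contrast, 9 of 32 partner genes were higher with spermine than with spermidine and 0 lower, where 20.1% of all genes were called and 9.07% called higher, and the median was 0.36. This is the opposite sign to the 14 mitochondrial probe sets in the same contrast, whose median was -0.82. QCR10 was higher by 1.24 ± 0.25, QCR9 by 0.84 ± 0.13, QCR7 by 0.80 ± 0.19 and ATP14, a stalk subunit of ATP synthase, by 0.74 ± 0.16, with adjusted p-values up to 0.00699 by limma, and all 4 kept the call when each array was left out. CYT1 (1.03 ± 0.32, adjusted p = 0.0334) and COX7 (0.89 ± 0.25, adjusted p = 0.0214) did not: CYT1 lost it without spermine 1, spermine 3, spermidine 2, 3 or 4, and COX7 without spermine 2 or spermine 3. COX4 was at -0.04 and ATP1 at 0.16, neither called. Between spermine and control no partner was called, where 0.0196% of all genes were called. At an unadjusted p under 0.05 in limma there were 0 partners, and 16 genes lay above and 16 below 0. The difference between the mitochondrial and nuclear subunits was not itself tested.

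**Figure D4:**
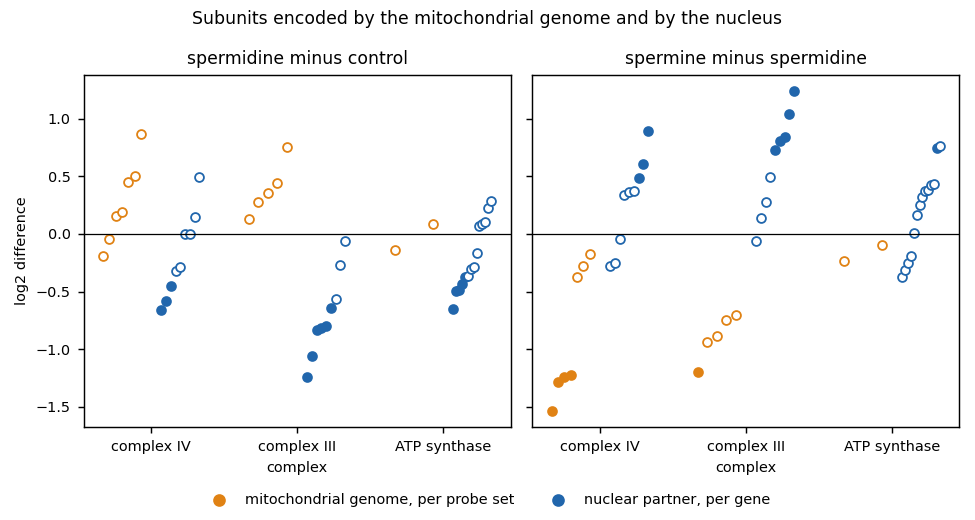
Points are log2 differences of subunits of complexes III and IV and ATP synthase, orange for mitochondrial probe sets and blue for nuclear partner genes, filled where called and ordered by value within each complex, in panels for the contrasts of spermidine minus control and spermine minus spermidine. With spermine minus spermidine the orange points lie below 0 and the blue points have a median of 0.36, whereas with spermidine minus control the blue median is -0.34.

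Of 46 nuclear-encoded factors that maintain, transcribe, process or translate the mitochondrial genome, 43 were tested, and 8 were higher and 3 lower with spermidine than in controls, with a median of 0.25. The share called was below the 31.6% of all genes. NCA3, which in yeast acts with NCA2 on expression of ATP6 and ATP8, fell furthest, from 2270.0 ± 535 (SD, n = 5) to 497 ± 197 (SD, n = 5), by 2.34 ± 0.35 (adjusted p = 0.000156 by limma). With spermine it was 2782 ± 835 (SD, n = 3), higher than with spermidine by 2.61 ± 0.40 (adjusted p = 0.000403), and both calls held when each array was left out. RPO41, the mitochondrial RNA polymerase, was at -0.55 ± 0.20 with spermidine (adjusted p = 0.0550) and MTF1 at 0.29 ± 0.16 (adjusted p = 0.191). Between spermine and control, 0 factors were called, with 2 at an unadjusted p under 0.05 in limma, where 0.0196% of all genes were called.

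Most of the translational activators listed act on 1 or a few mitochondrial mRNAs. Of the 17 listed, 16 were tested, and 5 were called between spermidine and control, 3 higher and 2 lower. That share is near the 31.6% of all genes called. SOV1, the one left, had no probe set of its own above the filter and has no value here. For OLI1, AEP1 was lower with spermidine by a log2 difference of -0.76 ± 0.19 (adjusted p = 0.00707 by limma) and ATP25 higher by 0.68 ± 0.14 (adjusted p = 0.00228), while AEP2 was at -0.05. For COB, CBP3 was higher by 0.67 ± 0.16 (adjusted p = 0.00481), while CBS1, CBS2 and CBP6 were at 0.08, 0.16 and -0.01 without a call. For COX1, MSS51 was lower by 0.41 ± 0.14 (adjusted p = 0.0374) and PET309 was at 0.66 (adjusted p = 0.0659). For COX3, PET122 was higher by 0.73 ± 0.26 (adjusted p = 0.0464), with PET54 at 0.04 and PET494 at -0.20. PET111 for COX2 (-0.21), ATP22 for ATP6 (0.13), AEP3 for ATP6 and ATP8 (0.29) and RMD9 (0.10), which stabilises several of these mRNAs, were not called. Left-out arrays ended the calls of PET122 in 11 of 13 fits and of MSS51 in 8 of 13, and none of those of AEP1, ATP25 and CBP3. DSS1, the exonuclease of the mitochondrial degradosome, was higher by 0.77 ± 0.20 (adjusted p = 0.0101). Without spermidine 1 the 11 factor calls became 7, where 26.8% of all probe sets were called.

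Between spermine and spermidine, 2 of 43 factors were higher and 4 lower, where 9.07% of all genes were called higher and 11.0% lower, with a median of -0.12. Besides NCA3, MSS51 was higher by 0.48 ± 0.16 (adjusted p = 0.0477 by limma). CCM1, which acts on COX1 and COB intron removal and on small ribosomal RNA, was lower, at -0.89 ± 0.21 (adjusted p = 0.00896), as were ATP25 (-0.67 ± 0.17, adjusted p = 0.0108), CBP3 (-0.57 ± 0.18, adjusted p = 0.0385) and the insertase OXA1 (-0.55 ± 0.17, adjusted p = 0.0353). CCM1 kept its call when each array was left out. ATP25 lost it without spermine 2, while OXA1, CBP3 and MSS51 lost it in 4, 6 and 9 of 13 such fits. The count of factors called was 3 without spermine 2 or spermidine 1, where 13.4% and 18.1% of all probe sets were called. The small RNA genes described above also differed between groups, with mean log2 deviations of 0.57 in controls, 0.46 with spermine and -0.84 with spermidine. For the 14 tested member probe sets the means were 0.01, -0.49 and 0.29 in that order. Spermidine was thus lowest for the small RNA genes and highest for the members. The part of the small RNA genes, of the stress genes and of cDNA priming in the differences of the mitochondrial genes was not tested.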

How the data were processed

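The authors deposited 1 linear intensity per probe set and array, made with MAS5 per the submitters' processing notes (the sources used here name no version). Trimmed means were nearly equal on all arrays. Of 9335 probe sets, 60 were controls and left out. The platform annotation gives 6504 of the rest 1 gene, 328 more than 1 and 2443 no gene. The 5923 identifiers were all found in the RefSeq gene table. Array medians differed by 1.29-fold, so log2 intensities (no pseudocount) were quantile normalized, the dimmest 25% were left out, and groups were compared over 13 arrays by limma 3.58.1 under R 4.3.3, with a mean-variance trend and Benjamini-Hochberg adjustment. Signals and SDs in the text are deposited values. Background is the 95th percentile over 19 control probe sets of non-yeast sequence, averaged per group.

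The members and the lists of partner subunits, factors, small RNA and stress genes were chosen with earlier results of these data known. Named genes are all members, up to 6 called genes of each list per contrast with the largest difference, CYT1, COX4, ATP1, RPO41, MTF1 and the translational activators, and the 5 nuclear genes most correlated with the members. SCEI was named after its values were seen. Genes are represented by their brightest probe set, 5102 in all. The script was tested on simulated data. Samples with the same replicate number did not deviate together (correlations of deviations -0.516 to 0.206), so the numbers were not taken as pairs. Python 3.11.15 and matplotlib 3.10.9 made the figures.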

Additional observations from a re-analysis of the deposited data

Results flagged for a closer look

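The highest or lowest array of each group of 5 was set against Dixon's 95% critical value for the 14 tested member probe sets, 28 groups in all, and 3 exceeded it, where chance flags about 1 in 20 groups. The control group of COX1 3996_s_at had a gap of 0.763 of its range, from control 2, whose signal was 325 against a group median of 167. The control group of COX1 4003_s_at had 0.775, again from control 2, at 550.1 against 312. In the spermidine group of COX1 4007_at the gap was 0.771, from spermidine 4 at 79.3 against 91.4. Groups of 3 were not examined.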

How the results depend on the processing

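For the member probe sets no log2 difference that was called changed sign in any setting, and uncalled values that changed sign, mainly of ATP6, were not counted as changes. The 0 calls between spermidine and control became 1 with a pseudocount of 64, 2 with array weights, 1 in the fit of the 2 groups alone, 1 without controls 2 and 3, and 3 without these and spermine 1. Of all probe sets, 30.5%, 35.1%, 29.2%, 26.8% and 28.3% were called in that order, against 30.1% before. Between spermine and control, array weights gave 1 call in place of 0, where 0.676% of all probe sets were called, against 0.0288% before. The 5 calls between spermine and spermidine became 1 with the dimmest 50% left out (9 probe sets tested, without those of COX3 and ATP6 and the dimmer ones of COX1 and COB), 9 with array weights, 3 with the replicate block, 10 without controls 2 and 3 and spermine 1, and 2 of 5 with probe sets averaged per gene. Leaving out each array gave 0 to 2, 0 to 0 and 1 to 9 member calls in the 3 contrasts in that order. The share of all probe sets called then ran from 26.8% to 30.4%, 0% to 0.0575% and 13.4% to 20.8%.

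For partner subunits the 14 calls between spermidine and control became 7 with the replicate block and 8 without controls 2 and 3, with or without spermine 1, and leaving out each array gave 9 to 14, 0 to 0 and 6 to 10. For the factors the 11 calls became 7 with the replicate block and 7 without controls 2 and 3, the 6 calls between spermine and spermidine became 3 with the block, and leaving out each array gave 7 to 11, 0 to 0 and 3 to 7. With the block, 24.8% of all probe sets were called between spermidine and control and 12.1% between spermine and spermidine. Without controls 2 and 3, 26.8% were called between spermidine and control, and 28.3% when spermine 1 was left out as well. Replicate numbers are shared by the labels only, so the block is no test of pairing. The causes of these changes were not tested. The stricter filter left fewer probe sets to test, and the fits with arrays left out or with 2 groups had fewer arrays. The dim probe sets of COX2, ATP8 and VAR1, near background, limit what can be said of those genes.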
